A study of Homo sapiens with 20 samples.

Results

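Rh41 and Rh30 are established human cell lines grown from alveolar rhabdomyosarcoma, and their RNA was compared here without any inhibitor, in cells given only DMSO, the solvent of the drug studied in the series. The comparison took in all genes that the array names. Where a gene had several probe sets, the one with the highest mean was kept, which gave 17687 genes, measured on 6 of the 20 arrays of the series. The groups were Rh41 with DMSO for 48 h (3 arrays) and Rh30 with DMSO for 48 h (3 arrays). The line difference was measured again in Rh41 with 200 nM of QC6352 for 48 h (3 arrays) against Rh30 with 200 nM of QC6352 for 48 h (3 arrays), which share no array with the DMSO comparison. QC6352 is a small-molecule inhibitor of the KDM4 histone demethylases. Rh30 with a control short hairpin RNA for 72 h (shControl, 2 arrays) was set beside Rh30 DMSO as a further Rh30 level. Each line comes from the tumour of a single patient, and the arrays of a group are labelled as biological replicates of that line, so that p-values measure the spread between cultures of these lines and not between tumours.

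The labels of 10 Rh30 arrays go against each other. Source name and treatment give one group, and the submitters' sample name gives another. The title goes with the source name, except on 1 array titled as KDM4C shRNA, whose source name and treatment are siKDM4C. By sample name the 3 arrays titled Rh30 DMSO are QC6352 replicates 2 and 3 and siRNA control replicate 1, while the arrays named Rh30 DMSO 1 to 3 are titled siRNA control 1 and 2 and siKDM4C 1. Groups follow the titles, and for that array the source name, and values by sample name are given for the gene groups and for genes whose call they change. Of the Rh30 arrays, the 3 titled QC6352 had the lowest level of MYOG, the gene of the muscle differentiation factor myogenin, at 9.03 to 9.34 as deposited, against 11.3 to 11.8 in all other Rh30 arrays. The labels of the Rh41 and shControl arrays do not conflict.

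Alveolar rhabdomyosarcoma is a childhood tumour of cells that start skeletal muscle development and do not finish it. In most cases a chromosome translocation joins PAX3, a transcription factor of muscle precursors, to FOXO1, a forkhead factor, and the fusion protein switches on genes such as FGFR4, MYCN, MYOD1, MYOG and ALK. A region of chromosome 12 that holds CDK4 and GLI1 is amplified in part of these tumours.

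The 6 arrays fell apart by line. Correlations over the genes tested were 0.993 or higher within a line and 0.921 or lower between the lines. In limma's fit, 10075 genes passed an adjusted p of 0.05, which is 57% of those tested, 4598 of them higher (26%) and 5477 lower (31%) in Rh41. The difference was at least 2-fold in 1327 of the higher genes (7.5% of those tested) and 1209 of the lower ones (6.84%). The groups of 3 arrays did not overlap for 11559 genes (65.4%). Array medians as deposited were 7.22 to 7.25 in all Rh41 arrays, 6.72 to 6.75 in Rh30 arrays whose treatment label is an siRNA and 6.95 to 6.99 in the other Rh30 arrays, so the line and whatever sets an array's median cannot be told apart. All values below are therefore log2 signals centred on each array's median and moved back by a constant near the mean median (aligned log2 signal), on which a difference of 1 is 2-fold. A single value beside a gene is its log2 difference, Rh41 minus Rh30, which is negative where Rh41 was lower. On the deposited scale every difference is 0.259 higher, and 7202 genes were higher and 2978 lower in Rh41 (70.7% higher, against 45.6% after centring). By sample name 3505 genes were higher and 4746 lower. Small differences therefore have a direction that depends on the scale. A gene was taken as below background in a line where all 3 arrays were under the 95th percentile of 612 negative control probe sets, 4.86 to 5.18 on the 6 arrays. Both lines were below it for 3316 genes. A line with only some arrays under the threshold was not counted as below background. A difference that rests on such a level gives no exact size. Of the other 14371 genes, 4371 were higher and 4426 lower in Rh41. Counts of gene groups below are to be read against the 26% of all genes that were higher and the 31% that were lower. These shares include the genes below background in both lines. Without those genes 49.7% of calls were higher, against 45.6% with them.

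Of the 30 leading genes, 24 were above background in one line and below it in the other. There the fitted difference, which ranks the genes, is not a size, and only a lower bound of the fold can be given. The bound sets the mean of the line above background against the mean background threshold of the other line's arrays. ANKRD29, a gene of an ankyrin repeat protein, had 10.30, 10.37 and 10.37 in Rh41, against 4.06, 3.91 and 3.87 in Rh30, and was at least 39.4-fold higher in Rh41 (adjusted p 2.19e-18). STATH, which encodes the salivary calcium-binding protein statherin, had 10.41, 10.43 and 10.29 in Rh41 and 4.06, 3.72 and 4.19 in Rh30, at least 40.2-fold higher in Rh41. AHR, the ligand-activated aryl hydrocarbon receptor, had 10.34, 10.29 and 10.30 in Rh41, against 3.94, 3.92 and 4.17 in Rh30, at least 38.4-fold. The leading genes were chosen among those whose groups do not overlap, and in these 3 genes all Rh30 arrays lay below background. FN1, the matrix protein fibronectin, was measurable in both lines, with 11.42, 11.44 and 11.45 in Rh41 and 5.74, 5.61 and 6.07 in Rh30, a log2 difference of 5.63 (SE 0.12). ERVW-1, a retroviral envelope gene known as the placental fusion protein syncytin-1, had 11.55, 11.51 and 11.56 in Rh41, against 5.16, 5.74 and 5.59 in Rh30. FLT1, a receptor of the growth factor VEGF, had 9.79, 9.76 and 9.93 in Rh41 and 3.90, 3.72 and 3.95 in Rh30, at least 27.4-fold higher in Rh41. The remaining genes among the 15 with the largest increase were SERPINI1, the serine protease inhibitor neuroserpin, ST6GAL2, a sialyltransferase, HSPA4L, a chaperone, PLXNC1, a semaphorin receptor, NID1, a basement membrane protein, NRG1, a ligand of ERBB receptors, SPATA6, NETO1, an auxiliary subunit of glutamate receptors, and KDM5B, a histone H3 lysine 4 demethylase. Each of these was below background in Rh30, with lower bounds of the fold between 16.8 (SPATA6) and 32.7 (NID1).

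Among the 15 genes with the largest decrease in Rh41, MGAM2, a gene related to the intestinal enzyme maltase-glucoamylase, averaged 3.31 ± 0.079 in Rh41, against 9.99 ± 0.011 in Rh30 (SD, n = 3 each), at least 30.7-fold lower in Rh41 (adjusted p 3.7e-17). MGST1, a membrane-bound glutathione transferase, had 3.33, 2.99 and 3.43 in Rh41 and 9.94, 9.83 and 9.77 in Rh30, at least 27.8-fold lower. CXCR4, the receptor of the chemokine CXCL12 and a gene described as induced by PAX3-FOXO1, had 4.89, 4.79 and 5.02 in Rh41, against 10.28, 10.30 and 10.09 in Rh30, at least 36.1-fold lower. In all 3 genes the Rh41 arrays were below background and the Rh30 arrays stood close together. SLFN11, a Schlafen gene known to make cells sensitive to drugs that damage replicating DNA, had 3.09, 3.27 and 3.37 in Rh41 and 8.59, 8.37 and 8.46 in Rh30, at least 10.7-fold lower. APOBEC3C, a cytidine deaminase that restricts retroviruses, had 4.15, 4.58 and 4.61 in Rh41, against 9.85, 9.72 and 9.78 in Rh30, at least 26.6-fold lower. The histone genes H2AC11 and H2BC12, members of families of near-identical copies that probes may not separate, were measurable in both lines. H2AC11 had 5.90, 5.76 and 6.03 in Rh41 and 12.31, 12.23 and 12.11 in Rh30. H2BC12 had 7.90, 8.23 and 7.72 in Rh41, against 13.16, 13.14 and 13.09 in Rh30. The actin-binding TAGLN2, the adenosine receptor gene ADORA1, the microfibril gene MFAP5, the autophagy gene GABARAPL1, the palmitoyltransferase gene ZDHHC2, the lipid enzyme gene LPCAT2, FILIP1L and GLT8D2 made up the rest. TAGLN2 and ADORA1 were measurable in both lines, and the other 6 were below background in Rh41, at least 14.8-fold (ZDHHC2) to 23.5-fold (MFAP5) lower. A further 3 genes were chosen after their values were seen. SLFN12, another Schlafen gene, was at least 10.4-fold lower, STAG2, a subunit of the cohesin ring that holds sister chromatids together, at least 8.17-fold lower, and APOBEC3B, a second cytidine deaminase, differed by -4.24 (SE 0.11). STAG2 had 3.07, 3.04 and 2.997 in Rh41, below background, against 8.27, 7.96 and 8.01 in Rh30.

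**Figure D1:**
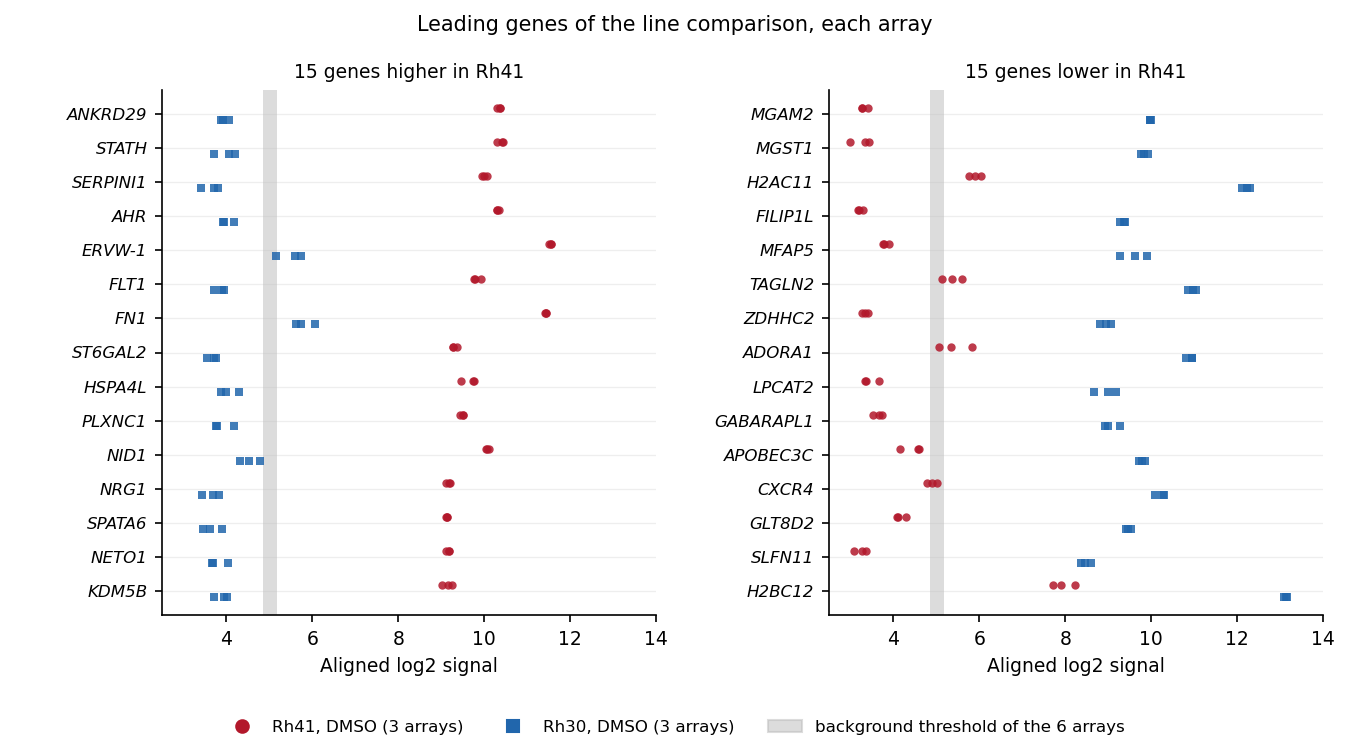
Aligned log2 signal (horizontal axis) of the 15 genes with the largest increase (left) and the 15 with the largest decrease (right) in Rh41 DMSO, 1 point per array (circles Rh41, squares Rh30), with the range of the background threshold of the 6 arrays in grey (4.86 to 5.18). The 30 genes were chosen among those whose lines do not overlap. On the left, 13 of the 15 genes are below background in Rh30, all but ERVW-1 and FN1.

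The same line difference was measured in the 6 QC6352 arrays. There 11216 genes passed the threshold (63.4%), 4808 higher (27.2%) and 6408 lower (36.2%) in Rh41, 1779 (10.1%) and 1576 (8.91%) of them at least 2-fold. Of the 1327 genes at least 2-fold higher in Rh41 with DMSO, 1276 (96.2%) were called higher under QC6352 as well, and of the 1209 at least 2-fold lower, 1129 (93.4%) were called lower. The opposite call was made for 9 and 17 genes of these sets. All 30 leading genes were called in the same direction under QC6352, with the smallest difference in H2BC12 (-3.06). A test of the difference between both comparisons passed for 16 of them, and for 3558 of all genes (20.1%). The 30 genes were chosen by the DMSO difference that this test uses, so these counts cannot be compared. Of the 16, 12 were below background in a line in DMSO, so the change in size is measured only in the others. H2AC11, measurable in both lines, differed by -3.73 under QC6352 and -6.32 in DMSO. MYOG stood apart in the other direction, with a line difference of 2.66 under QC6352 and -0.23 in DMSO. By sample name the arrays of the Rh30 groups change places in part, and all 30 genes were still called in the same direction in DMSO. Against the shControl arrays of Rh30, which share the Rh41 arrays with the DMSO comparison, 9207 genes passed (52.1%), 4242 higher (24%) and 4965 lower (28.1%) in Rh41.

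**Figure D2:**
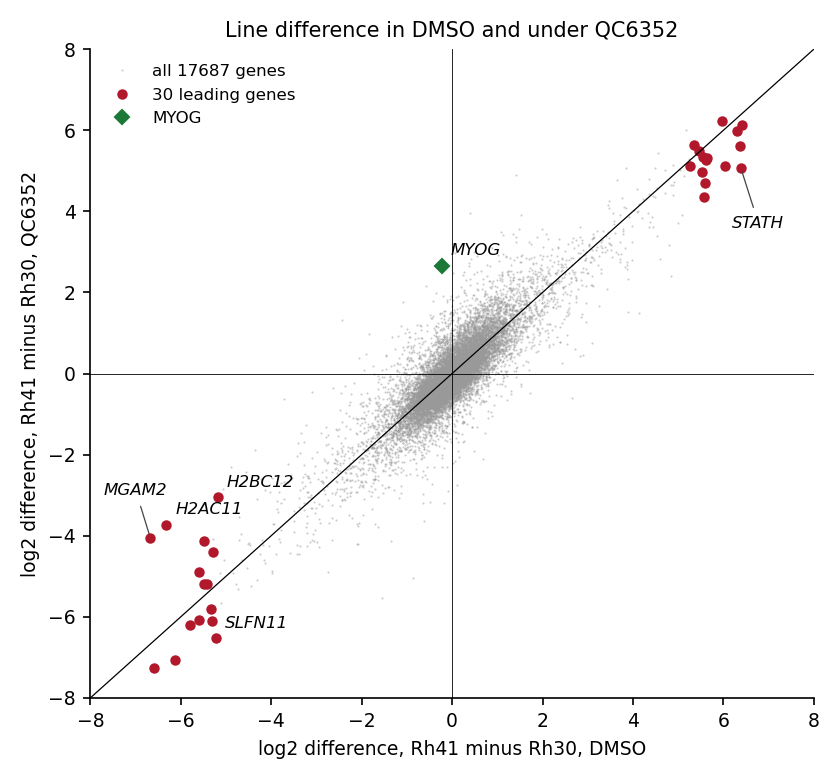
Log2 difference between Rh41 and Rh30 in DMSO (horizontal axis) and under QC6352 (vertical axis), 1 point per gene, with the 30 leading genes in red, MYOG as a green diamond and the line of equal difference in black, all as fitted, also for genes below background in a line. The leading genes lie in the same quadrant on both axes, while MYOG is at -0.23 in DMSO and 2.66 under QC6352.

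The genes joined in the fusion, and PAX7, the paralog of PAX3 and the other fusion partner in this tumour, were all higher in Rh41. PAX3 had 9.21, 9.17 and 9.06 in Rh41, against 8.73, 8.48 and 8.61 in Rh30 (difference 0.54, SE 0.09, adjusted p 7.67e-05). FOXO1 had 9.19, 9.22 and 9.18 in Rh41 and 7.74, 7.78 and 7.55 in Rh30 (difference 1.51, SE 0.09). PAX7 had 7.77, 7.92 and 7.96 in Rh41, against 5.63, 5.94 and 6.09 in Rh30 (difference 1.998, SE 0.15). No array of one line reached those of the other, as in 65.4% of all genes. The array does not separate the fusion transcript from those of the intact PAX3 and FOXO1 genes. Of 28 genes described as bound or induced by PAX3-FOXO1, 13 were higher and 7 lower in Rh41 (46.4% and 25%, against 26% and 31% of all genes), with a median difference of 0.17, and 19 and 6 on the deposited scale and 13 and 4 by sample name. TFAP2B, a transcription factor gene of the neural crest and a marker used for fusion-positive tumours, had 9.24, 9.20 and 9.16 in Rh41, against 4.36, 3.98 and 4.28 in Rh30, at least 17.7-fold higher. NELL1, a secreted protein gene, was at least 8.42-fold higher. BMP5, a bone morphogenetic protein gene, differed by 3.30 (SE 0.18), PDGFRA, a growth factor receptor gene, by 2.65 (SE 0.13) and GREM1, a secreted BMP antagonist, by 2.59 (SE 0.10). ALK, a receptor tyrosine kinase, had 8.09, 8.25 and 7.88 in Rh41 and 6.99, 7.30 and 6.77 in Rh30. The lower members were led by CXCR4, described above, and RASSF4, a RAS association domain gene, at -1.48 (SE 0.10). FGFR4, the fusion's best known receptor target, was high in both lines, with 10.76, 10.80 and 10.68 in Rh41, against 11.38, 11.43 and 11.32 in Rh30 (difference -0.63, SE 0.08). MYCN, the MYC family member amplified in some of these tumours, had 8.86, 8.83 and 8.71 in Rh41 and 9.63, 9.73 and 9.77 in Rh30 (difference -0.91, SE 0.10), a call that was lost by sample name (-0.29). MYC did not pass the threshold (0.18, adjusted p 0.133).

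Genes of the muscle programme were expressed in both lines, with single members far apart. Of 25 myogenic regulators measured, 7 were higher and 13 lower in Rh41 (28% and 52%, against 26% and 31% of all genes), and 10 and 10 on the deposited scale and 6 and 6 by sample name. MYF5, the determination factor that acts earliest in muscle precursors, had 4.52, 4.65 and 4.83 in Rh41, all below background, against 7.68, 7.66 and 7.64 in Rh30, at least 6.11-fold lower. MYOD1, the master regulator of muscle determination, had 9.56, 9.47 and 9.38 in Rh41 and 10.18, 10.23 and 10.15 in Rh30 (difference -0.71, SE 0.12), and was not called by sample name (-0.48). MYOG had 11.57, 11.63 and 11.49 in Rh41, against 11.75, 11.78 and 11.85 in Rh30, a difference of -0.23 (SE 0.09, adjusted p 0.0463) that turned to 0.032 on the deposited scale and was lost under each array left out. The inhibitors of these factors ID2 (-2.09) and ID1 (-1.28) were lower in Rh41, and the cofactor genes EYA4 (1.75) and EYA2 (1.30) were higher. MYMK, which encodes the fusion protein of muscle cells myomaker, was lower at -1.12 (SE 0.16) in the groups by title, was not called by sample name, and differed by 1.16 under QC6352. Of 57 sarcomere and contractile genes, 16 were higher and 18 lower, near the shares of all genes, and 21 and 9 on the deposited scale and 15 and 14 by sample name. MYOZ2, a protein of the Z-disc, had 10.74, 10.82 and 10.76 in Rh41, against 7.04, 6.71 and 7.04 in Rh30 (difference 3.84, SE 0.14). CASQ2, a calcium store protein, had 7.89, 7.89 and 8.08 in Rh41 and 4.21, 4.54 and 3.97 in Rh30, at least 7.48-fold higher. TTN, the gene of the giant sarcomere spring titin, differed by 2.60 (SE 0.15) and ATP2A1, a calcium pump of the muscle store, by 2.34 (SE 0.16). TMOD1, an actin filament capping protein, was lower at -2.54 (SE 0.18). At the neuromuscular synapse, CHRNE, the adult subunit of the muscle acetylcholine receptor, was at least 2.12-fold higher and below background in Rh30, while MUSK, the kinase that clusters the receptor, was lower at -0.89 (SE 0.08).

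Of 15 measured genes of the Hedgehog pathway, 2 were higher and 9 lower in Rh41 (13.3% and 60%, against 26% and 31% of all genes), with a median difference of -0.86, and 4 and 8 on the deposited scale and 2 and 9 by sample name. In this pathway a ligand binds PTCH1, which frees SMO and turns on the GLI transcription factors, and GLI1, PTCH1 and HHIP are themselves induced when it is active. GLI1 had 7.36, 7.62 and 7.67 in Rh41, against 10.91, 10.94 and 10.96 in Rh30 (difference -3.39, SE 0.09, adjusted p 5.65e-16). HHIP, which binds and holds back the ligand, had 8.12, 7.97 and 8.18 in Rh41 and 10.94, 10.98 and 10.91 in Rh30 (difference -2.85, SE 0.10). PTCH1, the receptor, had 8.59, 8.56 and 8.73 in Rh41, against 9.90, 9.66 and 9.77 in Rh30 (difference -1.15, SE 0.09). In all 3 genes every Rh41 array was lower than every Rh30 array, while 65.4% of all genes had groups that did not overlap. BOC, a coreceptor, was lower at -2.40 (SE 0.12), HHAT, which attaches palmitate to the ligand, at -1.53 (SE 0.13), and CDON, a second coreceptor, at -0.99 (SE 0.09). GLI3, the family member that mostly acts as a repressor, went the other way and had 9.12, 9.05 and 9.11 in Rh41, against 4.23, 3.97 and 3.98 in Rh30, all below background, at least 16.5-fold higher in Rh41. GLI2 did not pass the threshold (0.05, adjusted p 0.829), and SMO differed by 0.32 (SE 0.11), a call lost without Rh41 replicate 2 or Rh30 replicate 3.
The RefSeq promoter of PTCH1 is shown because it holds a match to the consensus binding site of GLI proteins (GACCACCCA, either strand, in capitals), which 0.211% of the promoters of genes tested hold. It spans 250 bases before to 50 after the start, at chr9:95509217-95509516 (GRCh38.p14, minus strand).
PTCH1: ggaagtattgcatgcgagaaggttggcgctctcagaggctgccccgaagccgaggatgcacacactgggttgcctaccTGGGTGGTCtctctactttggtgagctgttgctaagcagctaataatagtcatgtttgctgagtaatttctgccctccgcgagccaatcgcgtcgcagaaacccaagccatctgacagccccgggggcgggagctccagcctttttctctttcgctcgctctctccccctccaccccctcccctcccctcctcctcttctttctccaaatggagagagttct
The windows of HHIP, BOC and CDON hold no such letters. No promoter of GLI1 was available here, so it was not searched.

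**Figure D3:**
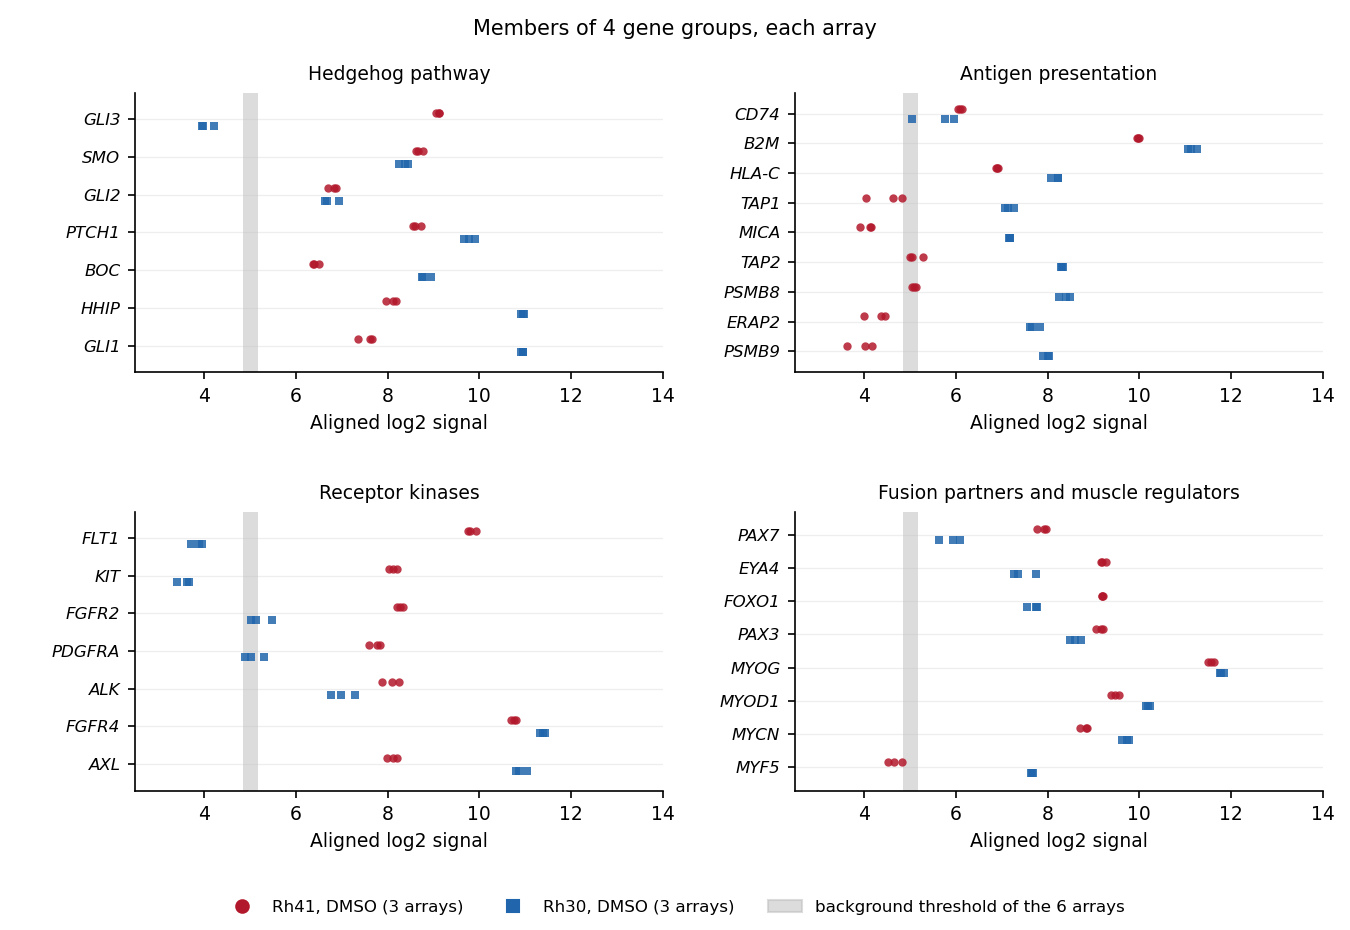
Aligned log2 signal (horizontal axis) of members of 4 gene groups, 1 point per array (circles Rh41, squares Rh30), with the range of the background threshold in grey. GLI3 and GLI1 differ in opposite directions, the antigen presentation genes from B2M to PSMB9 lie lower in Rh41, and FLT1 and KIT are below background in Rh30 only.

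GLI1 lies in a stretch of chromosome 12 where neighbouring genes were lower in Rh41 together. The genes were placed in their order on each chromosome (RefSeq, GRCh38.p14) and the median difference was taken over each run of 15 neighbours, 17340 runs in all. A run that overlaps a kept run with a larger median in size was dropped, so the ends of a run are not borders. The run with the largest median, -2.21, went from DTX3 to ATP23 and includes CDK4, and 15 of its 15 genes were called lower. The run before it, from NEMP1 to MBD6 with GLI1 in it, had a median of -1.75 (12 lower, 2 higher). CDK4, the kinase that drives cells out of the first gap phase, had 11.27, 11.29 and 11.30 in Rh41, against 13.51, 13.50 and 13.54 in Rh30 (difference -2.23, SE 0.07, adjusted p 1.04e-14). MARCHF9, a ubiquitin ligase gene next to CDK4, had 7.66, 7.56 and 7.37 in Rh41 and 12.31, 12.32 and 12.29 in Rh30 (difference -4.78, SE 0.11). AVIL, an actin regulator, had 6.08, 5.92 and 5.81 in Rh41, against 10.13, 10.09 and 10.03 in Rh30 (difference -4.15, SE 0.11). ATP23, the last gene of the run, differed by -3.81 (SE 0.10), and the next measured gene, LRIG3, named after its value was seen, by 0.16. TSPAN31, TSFM, OS9 and METTL1, chosen after their values were seen, differed by -2.21, -2.21, -2.04 and -2.55. DTX3 was lower by title (-0.49) and higher by sample name (0.46). The medians of these runs were -2.41 and -1.93 under QC6352, -2.24 and -1.79 against shControl and -2.40 and -1.56 by sample name. DNA copy number was not measured.

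Farther along the same chromosome the difference turned. The run from XPOT to DYRK2 had a median of 1.43, with 14 genes higher and none lower in Rh41, and the run from PTPRB to KCNC2 one of 1.11 (11 higher, 2 lower). The second of these was at 0.72 under QC6352 and 0.54 by sample name, and the first at 1.41 and 1.14. HMGA2, an architectural chromatin protein of embryonic cells, had 8.82, 8.63 and 8.52 in Rh41, against 7.38, 6.75 and 7.28 in Rh30 (difference 1.52, SE 0.15). MDM2, a ubiquitin ligase, had 9.54, 9.43 and 9.65 in Rh41 and 8.16, 8.20 and 8.36 in Rh30 (difference 1.30, SE 0.12). CPM, a carboxypeptidase gene beside MDM2, was at least 1.51-fold higher, and DYRK2, a protein kinase gene, differed by 2.23. LGR5, an R-spondin receptor and stem cell marker of the gut, had 8.51, 8.33 and 8.38 in Rh41, against 4.21, 4.14 and 4.45 in Rh30, all below background, at least 10.2-fold higher in Rh41.

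**Figure D4:**
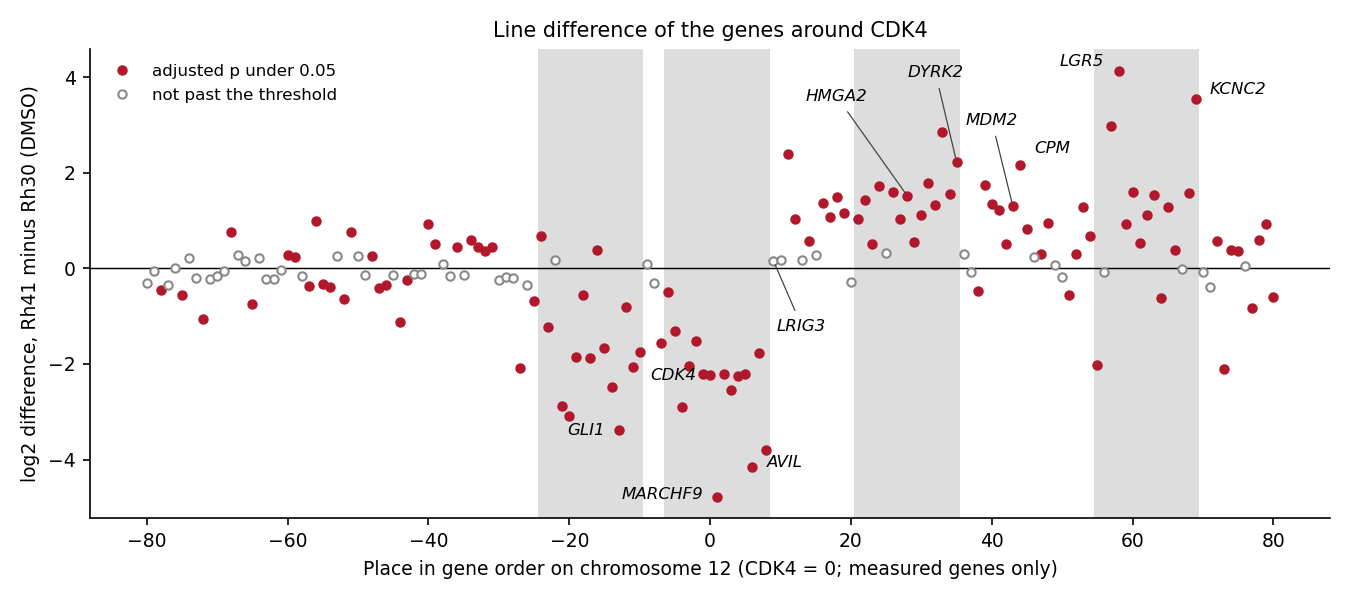
Log2 difference between Rh41 and Rh30 in DMSO (vertical axis) of the measured genes around CDK4, by their place in gene order (horizontal axis, CDK4 at 0), filled where the adjusted p is under 0.05, with the 4 runs of 15 genes named in the text shaded. Most genes from GLI1 to ATP23 lie below 0, among them MARCHF9 at -4.78, and most genes of the runs after LRIG3 lie above 0.

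Cell cycle and cell death genes held single large differences. Of 30 cyclins, CDKs, inhibitors and RB or E2F genes, 7 were higher and 12 lower in Rh41 (23.3% and 40%, against 26% and 31% of all genes), and 11 and 12 on the deposited scale and 6 and 12 by sample name. CCNE1, the cyclin of CDK2, was higher by 1.37 (SE 0.08) and CDK6, the close relative of CDK4, by 1.07 (SE 0.13). CDKN1A, the cyclin-dependent kinase inhibitor p21, averaged 7.75 ± 0.31 in Rh41, against 9.87 ± 0.12 in Rh30 (SD, n = 3 each, difference -2.12, SE 0.12). CDKN2A, the locus of the inhibitor p16, was high in both lines and did not pass the threshold (-0.07, adjusted p 0.538). Of 15 BCL2 family genes, 4 were higher and 6 lower (26.7% and 40%), and 5 and 3 on the deposited scale and 2 and 8 by sample name. The survival gene BCL2 had 8.07, 7.98 and 7.94 in Rh41 and 6.53, 5.95 and 6.14 in Rh30 (difference 1.79, SE 0.14), while its relative BCL2L1 had 6.96, 6.81 and 7.17 in Rh41, against 9.54, 9.65 and 9.75 in Rh30 (difference -2.67, SE 0.11). Of 46 replication genes, 12 were higher and 21 lower (26.1% and 45.7%, against 26% and 31% of all genes). Of 54 mitosis genes, 14 were higher and 20 lower (25.9% and 37%). Replication genes had 19 and 15 on the deposited scale and 8 and 15 by sample name, and mitosis genes 26 and 12 on the deposited scale and 8 and 21 by sample name.

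Genes of antigen presentation were mostly lower in Rh41. Of 25 measured genes, 3 were higher and 17 lower in Rh41 (12% and 68%, against 26% and 31% of all genes), 12 of the 17 at least 2-fold lower (6.84% of all genes were). The median difference was -0.82, and -0.56 on the deposited scale, where 4 were higher and 14 lower, and by sample name 1 was higher and 16 were lower. MHC class I molecules show peptides on the cell surface. The immunoproteasome subunits PSMB8 and PSMB9 cut the peptides, TAP1 and TAP2 carry them into the endoplasmic reticulum, ERAP2 trims them and B2M is the light chain of the molecule. PSMB9 had 3.63, 4.03 and 4.17 in Rh41, against 7.91, 8.03 and 8.01 in Rh30, at least 7.65-fold lower. PSMB8 had 5.08, 5.04 and 5.14 in Rh41 and 8.25, 8.48 and 8.39 in Rh30 (difference -3.28, SE 0.11). TAP2 had 5.01, 5.05 and 5.29 in Rh41, against 8.32, 8.30 and 8.33 in Rh30 (difference -3.20, SE 0.10). In all 3 genes every Rh41 array lay below every Rh30 array (groups did not overlap in 65.4% of all genes). The Rh41 levels of PSMB8 and TAP2 lay at the background threshold, so their differences give no exact size. ERAP2 had 4.47, 4.01 and 4.37 in Rh41 and 7.83, 7.66 and 7.63 in Rh30, at least 6.31-fold lower. TAP1, MICA, HLA-C and B2M were chosen after their values were seen. TAP1 was at least 4.32-fold lower and MICA, a stress ligand of natural killer cells, at least 4.38-fold lower. HLA-C differed by -1.27 (SE 0.09), and B2M had 9.99, 9.98 and 9.95 in Rh41, against 11.25, 11.07 and 11.13 in Rh30. The 3 higher members belong to MHC class II. CD74, the invariant chain, differed by 0.50 (SE 0.18), a call lost by sample name and without Rh41 replicate 1, 2 or 3 or Rh30 replicate 3, and HLA-DPA1 and HLA-DPB1 turned to -0.13 and -0.15 by sample name, where neither was called. Under QC6352, 1 gene was higher and 20 were lower, with a median of -1.04.
PSMB9 and TAP1 start beside each other on opposite strands, and their RefSeq promoters, printed here because both genes are lower in Rh41, share 13 bases. Capitals mark GC boxes (GGGCGG) and interferon response elements (a pair of GAAA with 2 bases of any kind between them), on either strand. PSMB9 is at chr6:32853942-32854241 (plus strand), TAP1 at chr6:32853655-32853954 (minus strand) and TAP2 at chr6:32838690-32838989 (minus strand, interferon elements only), all GRCh38.p14.
PSMB9: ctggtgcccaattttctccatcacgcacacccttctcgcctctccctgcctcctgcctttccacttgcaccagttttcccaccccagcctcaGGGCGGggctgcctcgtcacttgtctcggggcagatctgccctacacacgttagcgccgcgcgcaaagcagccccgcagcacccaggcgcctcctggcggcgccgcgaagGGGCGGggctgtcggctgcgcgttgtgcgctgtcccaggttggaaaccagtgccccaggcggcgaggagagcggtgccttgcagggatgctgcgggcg
TAP1: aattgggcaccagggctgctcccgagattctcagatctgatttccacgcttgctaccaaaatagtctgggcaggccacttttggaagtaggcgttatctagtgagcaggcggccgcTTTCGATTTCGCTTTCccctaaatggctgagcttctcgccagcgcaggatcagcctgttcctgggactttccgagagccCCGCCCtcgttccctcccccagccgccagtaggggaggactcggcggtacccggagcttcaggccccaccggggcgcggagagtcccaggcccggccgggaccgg
TAP2: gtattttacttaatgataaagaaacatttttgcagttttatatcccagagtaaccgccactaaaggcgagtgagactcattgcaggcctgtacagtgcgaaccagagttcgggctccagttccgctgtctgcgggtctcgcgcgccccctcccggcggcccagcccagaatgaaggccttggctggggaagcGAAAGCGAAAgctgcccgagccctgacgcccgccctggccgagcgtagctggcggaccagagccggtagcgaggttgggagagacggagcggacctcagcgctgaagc
The TAP1 window holds 2 matches to the interferon element, which overlap, and the TAP2 window holds 1, against 3.11% of promoters of genes tested that hold any. PSMB8 and PSMB9 hold none in this window. PSMB9 has 2 GC boxes and TAP1 has 1, a motif in 59.5% of these promoters.

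Of 42 interferon-stimulated genes, which include antiviral effectors, 6 were higher and 15 lower in Rh41 (14.3% and 35.7%, against 26% and 31% of all genes), and 11 and 10 on the deposited scale and 2 and 17 by sample name, with 10 members below background in both lines. PARP14, an ADP-ribosyltransferase, had 4.19, 4.41 and 4.10 in Rh41, against 7.98, 8.28 and 8.02 in Rh30, at least 8.26-fold lower. USP18, which removes the ubiquitin-like protein ISG15, had 4.86, 4.998 and 4.63 in Rh41 and 8.27, 8.17 and 8.12 in Rh30, at least 8.8-fold lower. SAMD9L and SAMD9, related growth and antiviral restriction genes, were lower, at least 5.3-fold in SAMD9L and at -1.90 in SAMD9. IFIT1, an RNA-binding antiviral protein, was at least 1.16-fold higher, with Rh30 below background, and was not called by sample name. IRF9, a subunit of the interferon-activated transcription factor, was higher by 0.51 (SE 0.13), also not called by sample name.

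Receptor tyrosine kinases differed by member. Of 34 measured, 15 were higher and 11 lower in Rh41 (44.1% and 32.4%, against 26% and 31% of all genes), and 18 and 4 on the deposited scale and 10 and 5 by sample name. KIT, the stem cell factor receptor, had 8.12, 8.04 and 8.20 in Rh41, against 3.42, 3.64 and 3.68 in Rh30, all below background, at least 8.42-fold higher. FGFR2, a fibroblast growth factor receptor, had 8.27, 8.33 and 8.20 in Rh41 and 5.03, 5.13 and 5.49 in Rh30 (difference 3.05, SE 0.16). PDGFRA had 7.77, 7.60 and 7.83 in Rh41, against 5.03, 4.91 and 5.32 in Rh30. The Rh30 levels of FGFR2 and PDGFRA lay near the background threshold. AXL, the receptor of GAS6, was the largest decrease of the group, with 8.20, 7.995 and 8.12 in Rh41 and 10.86, 10.80 and 11.04 in Rh30 (difference -2.79, SE 0.11). Among Eph receptors, which signal on cell contact, 9 of 21 receptors and ephrins were higher, 7 of them at least 2-fold, and 6 were lower, none of them 2-fold, and 11 and 3 on the deposited scale and 10 and 6 by sample name. Of all genes, 7.5% were at least 2-fold higher and 6.84% at least 2-fold lower. EPHA3 had 8.36, 8.43 and 8.18 in Rh41, against 3.87, 3.65 and 3.86 in Rh30, at least 9.66-fold higher, and EPHA4, EPHA5 and EPHA7 were higher by 3.09, 2.71 and 1.88. Of 31 FGF ligands and feedback genes, 12 were higher and 9 lower, and 14 and 4 on the deposited scale and 10 and 7 by sample name. FGF9 (1.70), the feedback inhibitor SPRY1 (1.65) and DUSP6 (1.44), a phosphatase of ERK, were higher, while DUSP5 (-1.97) and SPRY2 (-1.16) were lower.

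In the insulin-like growth factor system single binding proteins and adaptors stood far apart between the lines. IGF2, the growth factor that this tumour makes in excess, had 12.64, 12.76 and 12.66 in Rh41, against 12.58, 12.60 and 12.63 in Rh30 (difference 0.09, SE 0.08, adjusted p 0.37), and was called higher on the deposited scale, under quantile normalization (0.36), with further Rh30 controls and by sample name (0.56). IGF1R, its receptor, had 9.73, 9.96 and 9.87 in Rh41 and 9.76, 9.76 and 9.87 in Rh30 (difference 0.06, SE 0.09, adjusted p 0.592), was called higher on the deposited scale (0.32), and differed by -1.29 under QC6352. IGFBP3, the main binding protein in blood, had 8.56, 8.72 and 8.50 in Rh41, against 5.33, 4.91 and 4.59 in Rh30 (difference 3.65, SE 0.15), and IGFBP2 was higher by 2.19 (SE 0.09). The IGFBP3 level in Rh30 lay around the background threshold, so its difference gives no exact size. IRS1 was higher by 0.88 (SE 0.11), and IRS2, the other main adaptor of the receptor, had 4.04, 4.20 and 4.26 in Rh41, below background, and 6.92, 7.24 and 7.29 in Rh30, at least 4.29-fold lower. Of all 18 genes of the system measured, 8 were higher and 4 lower, and 11 and 3 on the deposited scale and 8 and 3 by sample name. The binding protein genes IGFBP4, IGFBP6 and IGFBP7 did not pass the threshold.

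Developmental signalling genes showed both directions. Of 27 Notch pathway genes, 8 were higher and 10 lower in Rh41, and 11 and 9 on the deposited scale and 8 and 7 by sample name. HES1, a repressor induced by Notch, had 9.02, 9.04 and 8.84 in Rh41, against 6.61, 6.34 and 6.64 in Rh30 (difference 2.43, SE 0.13), and differed by 0.27 under QC6352, where it was not called (adjusted p 0.0719). HEY2, a related repressor, was lower at -1.59 (SE 0.12), and the coactivator MAML2 at -1.57. Of 56 Wnt pathway genes, 13 were higher and 19 lower (23.2% and 33.9%), and 20 and 11 on the deposited scale and 11 and 15 by sample name. FZD6, a Wnt receptor, had 5.88, 5.36 and 5.38 in Rh41 and 8.95, 8.43 and 8.61 in Rh30 (difference -3.12, SE 0.18), LGR4, a relative of LGR5, was lower at -1.64, and the secreted inhibitors SFRP4 (1.95), DKK3 (1.73) and DKK2 (1.56) were higher. Of 44 TGF-beta and BMP pathway genes, 17 were higher, 11 of them at least 2-fold (7.5% of all genes were), and 12 were lower, and 22 and 10 on the deposited scale and 15 and 11 by sample name. BMP5 had 9.32, 9.47 and 9.28 in Rh41, against 5.50, 6.15 and 6.52 in Rh30, SMAD9, a BMP signal transducer, was higher by 2.64 (SE 0.11) and BMP2 by 2.48 (SE 0.14). The activin antagonist FST was lower at -1.99 (SE 0.13), and INHBE and BMP8A at -2.49 and -2.40.

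Matrix and adhesion genes held some of the largest single differences. Of 57 glycoproteins and proteoglycans of the matrix, 20 were higher and 15 lower, and 28 and 13 on the deposited scale and 19 and 15 by sample name. At least 2-fold were 11 of the higher and 7 of the lower ones, against 7.5% and 6.84% of all genes. LAMA1, a laminin chain of basement membranes, had 9.02, 9.21 and 9.03 in Rh41, against 4.71, 4.66 and 4.90 in Rh30, at least 16.4-fold higher, beside FN1 and NID1 above. GPC6, a glypican, was higher by 2.47 (SE 0.22). MFAP5 had 3.91, 3.76 and 3.78 in Rh41 and 9.28, 9.62 and 9.91 in Rh30, at least 23.5-fold lower. THBS1, thrombospondin-1, was lower at -2.75 (SE 0.10), ELN, elastin, at -2.52 and the laminin gene LAMA2, which muscle fibres need, at -2.37. Of 40 collagens, 7 were higher and 14 lower (17.5% and 35%, against 26% and 31% of all genes). The counts were 14 and 8 on the deposited scale and 4 and 10 by sample name. COL14A1, a fibril-associated collagen, had 4.996, 4.63 and 5.32 in Rh41, against 9.80, 9.82 and 9.87 in Rh30 (difference -4.85, SE 0.19), and COL6A1 was lower at -2.80. The COL14A1 level in Rh41 lay around the background threshold, so its difference gives no exact size. Among 21 cadherins, 3 were higher and 7 lower (14.3% and 33.3%), and 6 and 6 on the deposited scale and 3 and 9 by sample name. CDH6 was at least 6.72-fold lower, the neural and muscle cadherin CDH2 at least 4.73-fold lower and CDH11 was at -2.78. CDH2 had 4.34, 4.49 and 4.31 in Rh41, below background, and 7.14, 7.35 and 7.39 in Rh30. The clustered protocadherins measured here are 16 genes of the beta cluster, PCDHB1 to PCDHB16, near-identical neighbours that probes may not fully separate. Of these, 9 were higher and 2 lower (56.2% and 12.5%, against 26% and 31% of all genes), with a median of 0.48, and 13 and 1 on the deposited scale and 9 and 1 by sample name. PCDHB7 was higher by 2.27 (SE 0.11) and PCDHB13 at least 2.88-fold, while PCDHB2 was lower at -1.27. Of 25 integrins, the matrix receptors, 5 were higher and 9 lower (20% and 36%), and 9 and 6 on the deposited scale and 4 and 7 by sample name. ITGA11 was at least 1.97-fold higher, ITGB6 at least 2.99-fold lower and ITGA3 was lower at -2.03. Of 49 guidance genes, 13 were higher and 22 lower (26.5% and 44.9%, against 26% and 31% of all genes). The counts were 21 and 15 on the deposited scale and 17 and 16 by sample name. SEMA3D, a secreted semaphorin, had 9.66, 9.60 and 9.57 in Rh41 and 5.81, 6.05 and 6.13 in Rh30 (difference 3.61, SE 0.12). NTN4, a netrin, was higher by 3.32 and the coreceptor NRP2 by 2.53, while the receptors PLXNA4 (at least 6.15-fold) and NEO1 (-3.63) were lower.

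Genes that fix position and lineage in the embryo differed between the lines as well. Of 23 HOX genes measured, 5 were higher and 8 lower in Rh41, and 8 and 6 on the deposited scale and 7 and 6 by sample name. HOXD13, the last gene of its cluster, had 7.96, 8.15 and 7.92 in Rh41, against 5.41, 5.17 and 5.38 in Rh30 (difference 2.69, SE 0.10). HOXC10 was at least 3.02-fold higher, and HOXB13 was higher by 1.95. HOXB2, an early gene of its cluster, had 5.67, 6.25 and 6.02 in Rh41 and 8.83, 8.85 and 8.92 in Rh30 (difference -2.89, SE 0.15), and HOXB6 was lower at -1.35. LHX2, a LIM homeobox factor, had 9.37, 9.36 and 9.44 in Rh41, against 5.25, 5.22 and 5.01 in Rh30 (difference 4.23, SE 0.12). The somite factor MEOX1 was higher by 2.01 and PAX2, a factor of kidney development, by 2.02. TBX20, a heart factor, was at least 4.45-fold lower and below background in Rh41, and the cartilage factor SOX9 was lower at -2.35 (SE 0.11). Of 92 factors of this kind, 23 were higher and 26 lower, and 39 and 16 on the deposited scale and 33 and 15 by sample name. Of 19 imprinted genes, which are expressed from the copy of a single parent, 7 were higher and 3 lower, and 13 and 2 on the deposited scale and 8 and 3 by sample name. NDN and MAGEL2, neighbours in the Prader-Willi region of chromosome 15, were higher, at least 3.93-fold in NDN and by 2.51 (SE 0.17) in MAGEL2. NDN had 7.03, 7.05 and 6.99 in Rh41, against 4.83, 4.36 and 5.06 in Rh30. The growth inhibitor GRB10 had 8.21, 8.07 and 8.05 in Rh41 and 5.46, 4.52 and 4.49 in Rh30 (difference 3.28, SE 0.23). Its Rh30 level lay around the background threshold, so the difference gives no exact size. DLK1 was lower at -1.17 by title and was not called by sample name.

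The targets of QC6352 and other histone enzymes were compared because the series tests a KDM4 inhibitor. KDM4 enzymes remove methyl groups from lysine 9 and lysine 36 of histone H3. KDM4A had 8.66, 8.67 and 8.56 in Rh41, against 8.11, 8.25 and 8.13 in Rh30 (difference 0.47, SE 0.10), a call lost by sample name (0.21). KDM4B had 6.43, 6.60 and 6.03 in Rh41 and 6.66, 7.05 and 6.92 in Rh30 (difference -0.52, SE 0.19, adjusted p 0.0227), a call lost on the deposited scale and without Rh41 replicate 3, Rh30 replicate 2 or Rh30 replicate 3. KDM4C had 7.28, 6.96 and 7.31 in Rh41, against 6.93, 6.28 and 6.15 in Rh30 (difference 0.73, SE 0.15). KDM4D differed by 1.01 (SE 0.23) and KDM4E was below background in both lines. Of 38 other enzymes of histone H3 lysine methylation, 13 were higher and 9 lower, and 17 and 7 on the deposited scale and 10 and 8 by sample name. KDM5B had 9.26, 9.01 and 9.15 in Rh41, against 3.71, 3.95 and 4.01 in Rh30, at least 17.1-fold higher. NSD1, a lysine 36 methyltransferase, had 9.36, 9.32 and 9.45 in Rh41 and 6.33, 6.14 and 6.35 in Rh30 (difference 3.10, SE 0.16), and KDM2B, a demethylase that recruits Polycomb complexes, was higher by 1.66. SUV39H1, a lysine 9 methyltransferase encoded on the X chromosome, had 9.38, 9.12 and 9.22 in Rh41, against 11.15, 11.22 and 11.37 in Rh30 (difference -2.01, SE 0.09).

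Of 30 genes of glycolysis and glucose uptake, 4 were higher and 17 lower in Rh41 (13.3% and 56.7%, against 26% and 31% of all genes), with a median of -0.40, and 8 and 10 on the deposited scale and 1 and 20 by sample name. SLC2A3, a glucose transporter, had 5.70, 5.47 and 5.57 in Rh41, against 7.69, 7.94 and 8.11 in Rh30 (difference -2.34, SE 0.13), and PFKP, the platelet form of phosphofructokinase, was lower at -1.96 (SE 0.13). The muscle form PFKM was higher by 0.66 and was not called by sample name, and HK1, a hexokinase, was at 0.62 by title and -0.65 by sample name. ENO2, the neuronal enolase (at least 2.21-fold lower), lies in a run on chromosome 12 from PIANP to ENO2 with a median of -1.03 and 13 genes lower. Of 45 genes of detoxification and drug transport, 15 were higher and 20 lower (33.3% and 44.4%, against 26% and 31% of all genes). The counts were 19 and 13 on the deposited scale and 12 and 14 by sample name. AKR1C3, an aldo-keto reductase of steroids, had 7.52, 7.32 and 7.35 in Rh41 and 4.88, 4.75 and 4.50 in Rh30 (difference 2.69, SE 0.14), while the quinone reductases NQO1 and NQO2 went apart, at 1.58 and -1.48. The AKR1C3 level in Rh30 lay at or under the background threshold, so its difference gives no exact size. Of 42 ribosomal protein genes, 5 were higher and 16 lower (11.9% and 38.1%), none of them 2-fold. The counts were 13 and 5 on the deposited scale and 1 and 22 by sample name. Of 56 cancer-testis genes, 30 were below background in both lines. TDRD1, a germ cell gene of the piRNA pathway, had 3.86, 3.49 and 3.80 in Rh41, below background, against 7.78, 7.66 and 7.77 in Rh30, at least 6.44-fold lower.

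The markers of muscle were present in both lines. The summed level of 8 skeletal muscle markers, as log2 of the sum, was 13.8 to 13.9 in Rh41 and 14.2 to 14.3 in Rh30, and none was below background. Of the 8, 1 was higher and 7 were lower in Rh41 (12.5% and 87.5%, against 26% and 31% of all genes), and 0 and 4 by sample name. Lower by title were the filament gene DES (-0.85), the cadherin CDH15 (-1.03) and NCAM1 (-0.92). Under QC6352, 5 of the 8 muscle markers were higher and 2 lower. Of 13 epithelial markers, CDH1, EPCAM, ESRP1 and OVOL1 were below background in both lines, and so were PTPRC, CD3E, LCP1, LYZ and MS4A1 of 12 blood markers and EMCN, KDR and TEK of 10 endothelial markers. The other members of these sets were not below it in at least 1 line. Of the epithelial markers, 2 were higher and 4 lower, among them KRT19 (1.73) and CLDN4 (-1.78). The summed epithelial level was 9.998 to 10.14 in Rh41 and 10.07 to 10.18 in Rh30. The blood level was 9.34 to 9.48 in Rh41 and 9.32 to 9.51 in Rh30, with 0 markers higher and 1 lower. The summed endothelial level was 9.30 to 9.39 in Rh41 and 9.68 to 9.84 in Rh30, led by PECAM1 (-2.53), and the fibroblast level 10.1 to 10.2 in Rh41 and 10.4 to 10.5 in Rh30, with 3 of 9 markers higher (FAP, COL1A2 and PDGFRB), 1 lower (THY1, -4.32), and LUM and POSTN below background in both lines and FAP in Rh30. Of 13 neural markers, 1 was higher and 6 lower (7.69% and 46.2%), with sums of 9.59 to 9.62 in Rh41 and 9.53 to 9.68 in Rh30. Of 7 melanocyte and Schwann markers, 1 was higher and 1 lower, with sums of 8.06 to 8.13 in Rh41 and 8.59 to 8.71 in Rh30.

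The X chromosome stood out among the chromosomes. Of its 709 genes, 60 were higher (8.46%) and 377 lower (53.2%) in Rh41, with a median difference of -0.38. Among its 503 genes above background in at least 1 line, 47 were higher and 314 lower (62.4%), and on the deposited scale 121 of the 709 were higher and 255 lower. The median was -0.37 under QC6352, -0.39 against shControl and -0.38 by sample name. The run from TIMM17B to CCDC22 on X had a median of -1.13, with 13 genes lower and none higher, and holds PQBP1 (-1.44), a splicing factor gene, and TIMM17B (-2.03), a mitochondrial import gene. STAG2 and SUV39H1, both lower in Rh41, are on X. Chromosome 18 went the other way, with 117 of 250 genes higher (46.8%) and 40 lower (16%), and chromosome 4 had 38.7% higher and 19.5% lower. Of the genes described above, BCL2, LAMA1 and ANKRD29 on chromosome 18 and KIT, PDGFRA and STATH on chromosome 4 were higher. Not all went this way, and HHIP on chromosome 4 was lower (-2.85). A run on chromosome 18 from B4GALT6 to ZNF24 had a median of 1.04 (11 higher, 2 lower), with the zinc finger genes ZNF397 (1.997) and ZNF24 (1.32) at its end. On chromosome 19 a run of zinc finger genes from COX7A1 to ZNF829 had a median of 1.14, with 14 of 15 higher, and COX7A1, a muscle form of a respiratory chain subunit, had 8.43, 8.34 and 8.25 in Rh41, against 6.65, 6.01 and 6.30 in Rh30. The remaining kept runs with a median of at least 1 in either direction were ZNF385B to ZC3H15 (1.13) and RGPD3 to SOWAHC (1.06) on chromosome 2, and ARHGEF17 to PGM2L1 on chromosome 11 (-1.002). By sample name the medians of the runs named in this paragraph lay between 0.75 and 0.95 where they are positive here, with the ARHGEF17 run at -1.20 and the TIMM17B run at -0.87.

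**Figure D5:**
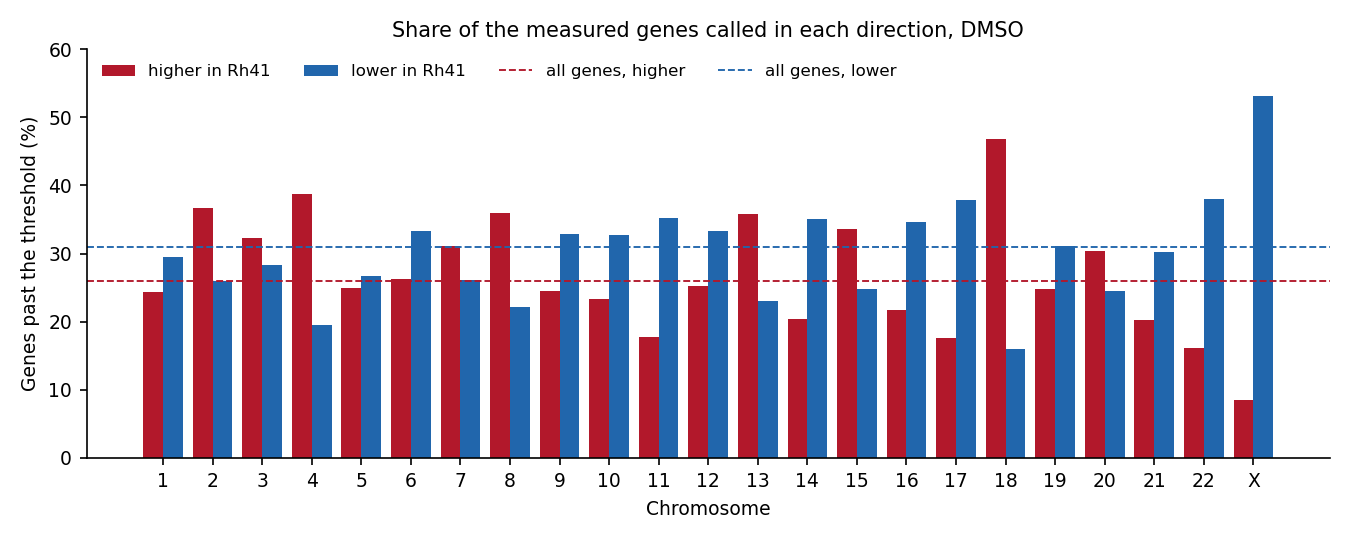
Share of the measured genes of each chromosome that passed the threshold as higher (left bar) or lower (right bar) in Rh41 DMSO, in percent, with dashed lines at the shares of all genes (26% and 31%). The X chromosome has the tallest bar for lower genes (53.2%) and chromosome 18 the tallest for higher genes (46.8%).

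Promoter composition was compared for the genes farthest apart. Of 132 genes at least 8-fold higher in Rh41, 111 had a RefSeq promoter, and of 126 at least 8-fold lower, 96 had one. The ratio of observed to expected CpG dinucleotides had a median of 0.77 in the higher set, 0.726 in the lower set and 0.77 in all 14250 genes tested that have a promoter. The interferon element was present in 2.7% of the higher set, 5.21% of the lower set and 3.11% of all. No promoter of either set held the GLI site. It is in 0.211% of promoters of genes tested, so sets of this size cannot show a difference.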

How the data were processed

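RNA of 20 cell cultures was hybridised to Clariom S human arrays, 125 ng each, per the labels' protocols. The authors deposited log2 expression values per probe set. GCOS, the scanner software, is named per the submitters' processing notes, and the normalization is not given in the sources used here. Each array was centred on its median over all probe sets and the mean of the 20 medians (7.00) was added back, which leaves differences unchanged. Of 24351 probe sets, 17709 have a gene symbol, and 22 second probe sets of a gene were left out, leaving 17687 genes. One mean per titled group was fitted to all 20 arrays using lmFit and eBayes (R 4.3.3, limma version 3.58.1), which left 12 residual degrees of freedom, with Benjamini-Hochberg adjustment over all genes tested and a threshold of 0.05. All adjusted p-values are from this fit. The number of arrays limits the precision.

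Named were the 15 genes with the largest difference in each direction among called genes whose groups do not overlap, up to 4 called members per list and direction, every member of lists of up to 20, and fixed genes of the disease and the drug target. Unnamed loci, small RNAs and genes of the Y chromosome were left out. Genes named after their values were seen are marked in the text. The members and gene lists were chosen with earlier results of these data known, so list counts are descriptions. Alternatives were the scale as deposited, quantile normalization, a filter on dim probe sets, other moderation, array weights, fewer arrays, all probe sets, a replicate block, other Rh30 arrays, groups by sample name and leaving out single arrays. Counting only genes above background was added after seeing the data. Same-numbered arrays of the lines did not deviate together (correlations of -0.0356, -0.00221 and 0.0215), so the numbers were not used as pairs.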

Additional observations from a re-analysis of the deposited data

Results flagged for a closer look

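The difference between Rh41 and Rh30 was itself different under QC6352 and in DMSO for 21 of the 47 single genes for which this was examined, by limma's test of the difference between both comparisons with adjustment over all genes. Over all genes 20.1% passed that test. Many of the genes examined were leading genes, which were chosen by the DMSO difference that the test uses. The 21 of 47 therefore cannot be compared with the share of all genes. MYOG changed most, with a line difference of 2.66 under QC6352 and -0.23 in DMSO (2.89, SE 0.13). MYOD1, the other muscle factor, was at 0.43 under QC6352 and -0.71 in DMSO (1.14, SE 0.16). IGF1R had -1.29 under QC6352 and 0.06 in DMSO (-1.35, SE 0.12). The histone genes H2AC11 (2.60) and H2BC12 (2.12) were lower in Rh41 in both, by less under QC6352. For 12 of the 21 genes, 1 line was below background in DMSO, so that their values depend on signals below background and give no size. These were STATH (-1.33), SERPINI1 (-0.76), HSPA4L (-0.91), PLXNC1 (-1.22) and NRG1 (-0.55) among genes higher in Rh41, and MGAM2 (2.62), MGST1 (-0.68), FILIP1L (-0.95), ZDHHC2 (0.71), CXCR4 (-0.78), GLT8D2 (0.89) and SLFN11 (-1.29) among genes lower in Rh41. For genes measurable in both lines, QC6352 minus DMSO was ERVW-1 (-0.93), MDM2 (-0.87), ADORA1 (1.36) and FGFR4 (0.35). By sample name, 2 of the 3 arrays titled Rh30 DMSO are QC6352 arrays, so these differences rest on labels that go against each other. With 3 arrays in a group, single arrays that lie apart were not looked for.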

How the results depend on the processing

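With the threshold of 2-fold added, the genes called fell in number to 2536 in DMSO, 3355 under QC6352 and 2539 against shControl, since that threshold removes small differences. Every other alternative kept the counts within 1.5 times. Leaving out 1 array gave 9016 to 9437 genes in DMSO, 10295 to 10903 under QC6352 and 7657 to 8536 against shControl. The replicate block gave 10117, 11232 and 9097. By sample name 8251 genes were called in DMSO and 8338 under QC6352. With groups by title, 8797 genes were called in DMSO among those above background in at least 1 line. On the deposited scale 70.7% of calls in DMSO were higher in Rh41, against 45.6% after centring. The 30 leading genes kept their call in 527 of 527 values over 18 settings. They were chosen for the largest differences in these arrays, so this outcome was nearly fixed in advance. Of 8366 values of 475 named genes, 7949 kept their call and its direction or stayed without a call, 318 lost the call, 86 gained it and 13 reversed. On the deposited scale CHRNB1 turned to 0.0095 and MYOG to 0.032. By sample name CHRNA1 turned to -0.050, DTX3 to 0.46, FSIP2 to 0.20, HK1 to -0.65, HLA-DPA1 to -0.13, HLA-DPB1 to -0.15, IGFBP1 to -0.044, MCL1 to -0.043, MNT to 0.14, PGAM1 to -0.18 and PMAIP1 to -0.27. The cause was not tested. Of 1620 list counts, 210 moved by over 1.5 times. Signal over background limits the 3316 genes below it in both lines, of which 1051 were called lower and 227 higher after centring, beside a median difference of -0.227 in negative controls.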

Other observations

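Of 3739 transcript probe sets with no gene symbol here, 1688 passed the threshold (45.1%), against 57% of named genes. In Rh41, 687 of them were higher and 1001 lower, 160 and 165 of them at least 2-fold.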
